A study of Homo sapiens with 2 samples.

Results

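The MAX network is the group of basic helix-loop-helix leucine zipper transcription factors built around MYC and its partner MAX, and 10 of its genes were followed here: MYC, MAX, MXI1, MXD1, MXD3, MXD4, MNT, MLX, MLXIP and MGA. The genes were chosen by name, and each symbol was matched to the gene identifier used in the deposited tables. Of the 19316 genes listed in at least 1 of the 2 tables, these were 10, and all 10 were listed in both. The data come from poly(A)-selected RNA of SNU449 cells, a line established from a human liver tumour, collected 7 days after a lentivirus brought in a short hairpin RNA (shRNA). The group under study carried an shRNA against FZD2, a frizzled receptor for Wnt ligands, and is labelled as FZD2 deficient, while its reference carried a negative control shRNA; both groups share the cell line, the lentiviral vector type and the culture time. Each group was 1 library, and neither the number nor the sequence of the hairpins was known here. No value below therefore has a replicate error, and no difference between the groups was tested for significance.

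MYC binds DNA as a dimer with MAX at the E-box, most strongly at the letters CACGTG, and activates genes of ribosome production, nucleotide synthesis and growth. MAX also pairs with the MXD proteins, MXI1 and MNT, which recruit SIN3 and histone deacetylases to the same E-boxes and oppose MYC, and with MGA, a scaffold of a Polycomb repressor complex. MLX is a second hub: it pairs with MLXIP, also called MondoA, which carries glucose-responsive activity, and with some MXD proteins and MNT. MYC is also a classical target gene of Wnt and beta-catenin signalling in the colon, which is why its level in a frizzled knockdown is of interest.

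The targeted gene was checked first. FZD2 (gene identifier 2535) had 15.76 FPKM with the FZD2 shRNA, against 59.45 FPKM with the control shRNA. The ratio of FPKM + 1 was -1.85 on the log2 scale, in the direction the labels give, and its counts included shared reads. The FZD2 shRNA library held 8234592 expected counts and the control library 8436870. A gene was called measured at 1 FPKM or more in at least 1 library, which 14377 genes reached. The words higher and lower are used of genes whose log2 ratio of FPKM + 1 was 1 or more in size, which is 2-fold. A gene was said to share reads with another where its expected count was a fraction in either library. The median log2 ratio was -0.25 for the 8154 measured genes without shared reads and 0.48 for the 6223 with them. Of 10 hepatocyte markers, 0 were measured, with the albumin gene ALB at 0.05 FPKM with the FZD2 shRNA and at 0 with the control shRNA, so the hepatocyte identity of the labelled tissue was not seen. The labels conflict, naming prostate in the growth protocol and liver under cell type, and the series' design text spells the line SNU499 where its title and the sample labels have SNU449. Of 9 prostate markers 4 were measured, summing with the rest of the list to 11.07 FPKM with the FZD2 shRNA and 8.29 FPKM with the control shRNA, and KLK3 was unlisted in both. Of 7 leukocyte markers 4 were measured, summing to 94.26 FPKM with the FZD2 shRNA and 27.79 FPKM with the control shRNA, of which LYZ had 71.47 FPKM with the FZD2 shRNA and 12.31 FPKM with the control shRNA, and CD68 had 19.45 FPKM with the FZD2 shRNA and 12.15 FPKM with the control shRNA, both with shared reads. PTPRC was at 1.61 FPKM with the FZD2 shRNA and 1.56 FPKM with the control shRNA and CD3E was unlisted. The list for fibroblasts and stellate cells had 4 of 7 markers measured, summing to 343.86 FPKM with the FZD2 shRNA and 436.58 FPKM with the control shRNA. COL1A2 had 198.48 FPKM with the FZD2 shRNA and 306.36 FPKM with the control shRNA. Of the 4 measured, 3 had a ratio below 0 and 1 above it. The latter was COL1A1, at 119.9 FPKM with the FZD2 shRNA and 100.13 FPKM with the control shRNA (log2 ratio 0.26). DCN and LUM were under 1 FPKM in both. Of 5 endothelial markers 1 was measured, PECAM1, at 2.33 FPKM with the FZD2 shRNA and 0.41 FPKM with the control shRNA (log2 ratio 1.24, shared reads), while VWF was unlisted. The part of such cells in the results below was not tested.

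MYC and MAX, the activator and its obligate partner, were both more than 2-fold lower with the FZD2 shRNA, while no measured antagonist of MYC in the group was past 2-fold. MLXIP stood at the edge of the limit in the other direction. Of the 9 measured members 2 were lower and 0 higher, where 7.41% of all measured genes were lower and 15.2% were higher. MXD1 was the member that was not measured. The median log2 ratio over the 9 was 0.02, against -0.0042 over all measured genes. Members just inside and just outside the limit were MAX at -1.09 and MLXIP at 0.98.

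**Figure D1:**
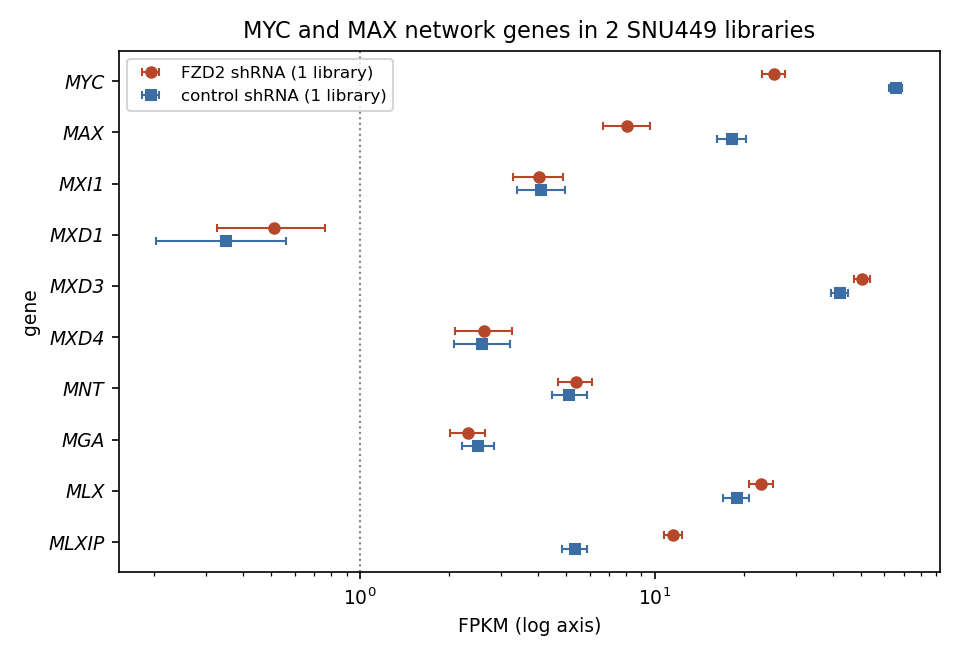
FPKM (log axis) of the 10 genes with the FZD2 shRNA (circles) and the control shRNA library (squares), 1 library each, with bars for the 95% counting interval of each level and a dotted line at 1 FPKM. MYC and MAX lie to the left of their control values, MLXIP lies to the right of its own, and MXD1 is under the line in both libraries.

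MYC (gene identifier 4609) had 25.28 FPKM with the FZD2 shRNA and 65.44 FPKM with the control shRNA. The FZD2 shRNA level was the lower by 2.53-fold on the scale of FPKM + 1, a log2 ratio of -1.34. Its expected counts were 498 with the FZD2 shRNA and 1324 with the control shRNA, both whole, so its reads were not visibly shared with other genes. Scaled to the library totals, these counts gave a log2 ratio of -1.38, with a 95% counting interval from -1.53 to -1.23. Such intervals hold counting error and nothing else, and duplicated reads would make them too narrow. In all, 2.57% of measured genes had a lower log2 ratio of FPKM + 1 than MYC. MYC stayed below -1 in each of 8 other units, scalings and pseudocounts, from -1.37 to -1.13.

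MAX (gene identifier 4149), without which MYC does not bind DNA as a dimer, had 8.04 FPKM with the FZD2 shRNA and 18.24 FPKM with the control shRNA, a log2 ratio of FPKM + 1 of -1.09. Its expected counts were whole, at 119 with the FZD2 shRNA and 304 with the control shRNA, and their log2 ratio was -1.32 (95% counting interval -1.64 to -1.01). Without a pseudocount the log2 ratio of FPKM was -1.18, so part of the gap between FPKM + 1 and counts comes from the pseudocount. The rest goes with a shorter listed length: 1797.62 bases with the FZD2 shRNA and 1966.63 bases with the control shRNA, or 91.4%. The level per length and the count of reads of MAX thus differed in how far they were apart between the libraries. The call was near the limit: the log2 ratio was -0.97 in TPM, -0.83 with a pseudocount of 5 FPKM and -0.77 with the trend of the ratios on GC content taken out. That trend was -0.32 at the GC content of MAX and carries the general level of the genes it was fitted to. The part of GC content in the MAX result was not tested. The RefSeq span of MAX overlaps those of CHURC1-FNTB (3.09 FPKM with the FZD2 shRNA and 4.72 FPKM with the control shRNA) and MAX-AS1 (0.85 FPKM with the FZD2 shRNA and 0.41 FPKM with the control shRNA). With no strand setting stated, reads from overlapping parts cannot be told apart.

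**Figure D2:**
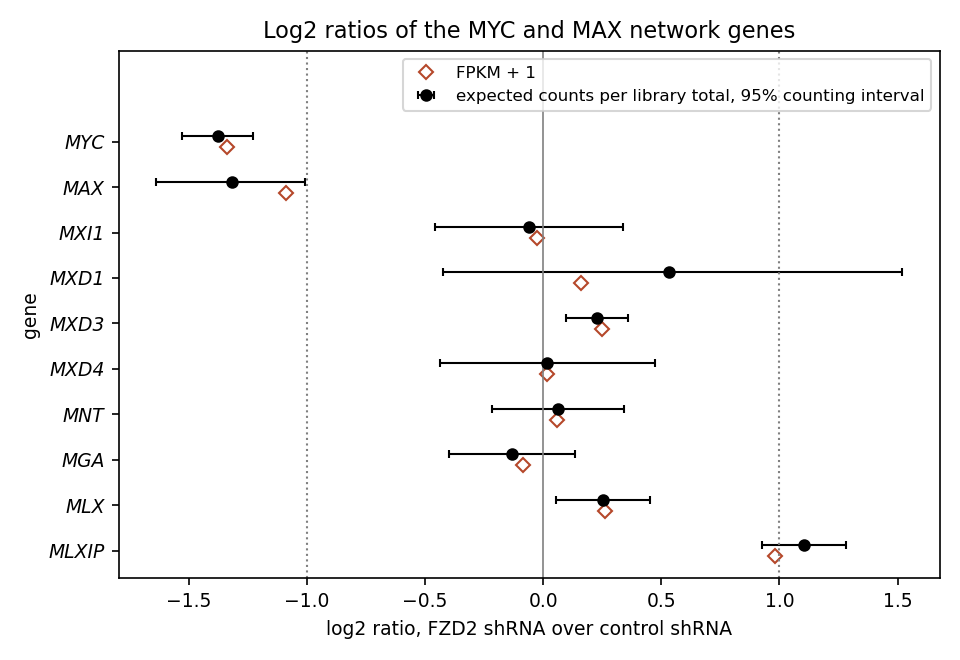
Log2 ratio of FZD2 shRNA over control shRNA for each gene, from expected counts with the 95% counting interval (filled circles and bars) and from FPKM + 1 (open diamonds); dotted lines mark 2-fold. The MYC and MAX intervals, up to -1.23 and -1.01, lie left of the dotted line, and those of MXI1, MXD1, MXD4, MNT and MGA span 0.

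The MXD family repressors, MXI1 and MNT compete with MYC for MAX, and none of the 5 was 2-fold higher or lower. MXD3, which is best known from proliferating cells, was the most abundant of them by far, at 50.45 FPKM with the FZD2 shRNA and 42.32 FPKM with the control shRNA (log2 ratio of FPKM + 1 0.25). Its expected counts, 1034 with the FZD2 shRNA and 904 with the control shRNA, gave a counting interval of 0.10 to 0.36 on the log2 scale, which lies above 0. An interval that excludes 0 was common: 72.3% of all measured genes had such an interval, and so did 5 of the 9 measured members, MYC and MAX on the lower side and MXD3, MLX and MLXIP on the higher. The MXD3 span overlaps that of PRELID1, at 140.06 FPKM with the FZD2 shRNA and 167.55 FPKM with the control shRNA, and how many of its reads come from that gene was not tested.

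The remaining antagonists were at a few FPKM or less and nearly level between the libraries. MNT, a widely expressed MAX partner, had 5.38 FPKM with the FZD2 shRNA and 5.13 FPKM with the control shRNA (log2 ratio 0.06). MXI1 had 4.03 FPKM with the FZD2 shRNA and 4.12 FPKM with the control shRNA (log2 ratio -0.03). MXD4 had 2.64 FPKM with the FZD2 shRNA and 2.6 FPKM with the control shRNA (0.02). MXD1, which rises in differentiating cells, had 0.51 FPKM from 24 reads with the FZD2 shRNA and 0.35 FPKM from 17 reads with the control shRNA. Its counting interval of -0.42 to 1.52 runs past 2-fold on the higher side only. By counting error alone, a 2-fold higher level lies inside the interval and a 2-fold lower one outside it. The counting intervals of MNT (-0.22 to 0.34), MXI1 (-0.46 to 0.34) and MXD4 (-0.44 to 0.47) all lay within 2-fold in either direction. MNT and MXD4 had expected counts that were not whole, so some of their reads may belong to other genes.

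Set beside its antagonists, MYC held a different place in the order of levels in each library. On the per-length scale MYC was second with the FZD2 shRNA, where MXD3 was first, and first with the control shRNA. The 5 antagonists summed to 63.01 FPKM with the FZD2 shRNA and 54.52 FPKM with the control shRNA. MYC was 0.401 of that sum with the FZD2 shRNA and 1.20 of it with the control shRNA, a quotient lower by 2.99-fold, or -1.58 on the log2 scale. MXD3 made up 80.1% of the sum with the FZD2 shRNA and 77.6% with the control shRNA. Without MXD3 the quotient was 2.01 with the FZD2 shRNA and 5.36 with the control shRNA (log2 -1.41), an alternative added after the values were seen. Both terms of this quotient come from the same library, so it does not depend on the scaling between libraries.

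Measured against MAX, MYC and the antagonists differed. MYC over MAX was 3.14 with the FZD2 shRNA and 3.59 with the control shRNA, since both genes were lower. The summed antagonists over MAX stood at 7.84 with the FZD2 shRNA and 2.99 with the control shRNA. MAX was 0.0887 of the summed FPKM of MYC, the 5 antagonists and MGA with the FZD2 shRNA, and 0.149 of it with the control shRNA. These are quotients of RNA levels of 1 library each, and protein was not measured.

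**Figure D3:**
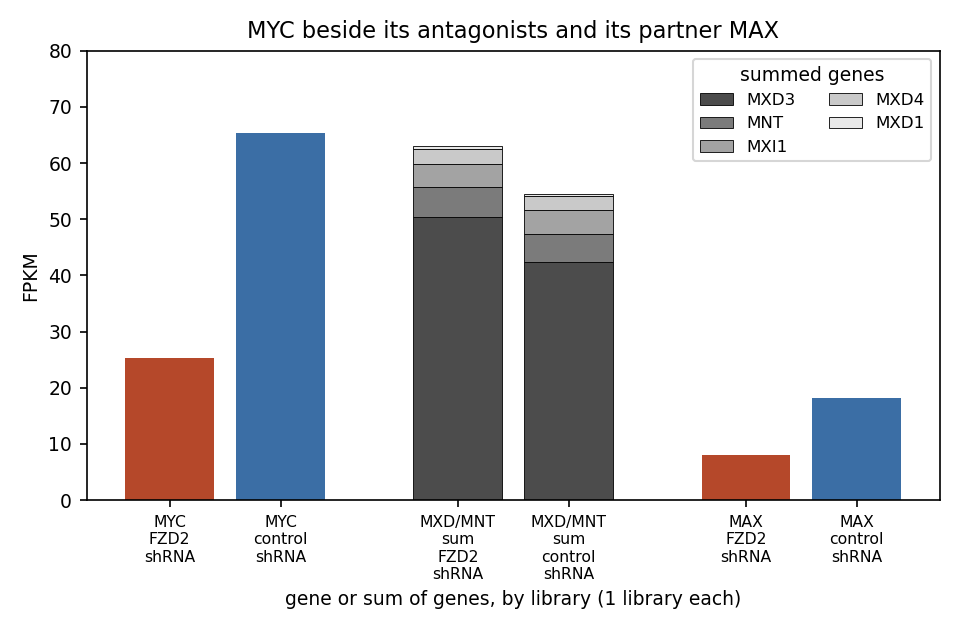
FPKM of MYC, of the 5 summed antagonists (stacked by gene) and of MAX, with the FZD2 shRNA library left of the control shRNA library in each pair and 1 library a bar. MYC stands at 25.28 FPKM with the FZD2 shRNA against 65.44 FPKM with the control shRNA, and the antagonist sum, most of it MXD3, at 63.01 FPKM with the FZD2 shRNA against 54.52 FPKM with the control shRNA.

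In the MLX arm, MLXIP (gene identifier 22877) had 11.51 FPKM with the FZD2 shRNA and 5.34 FPKM with the control shRNA, a ratio of 2.16 without a pseudocount and a log2 ratio of 0.98 on FPKM + 1. Its counts gave a log2 ratio of 1.10 (95% counting interval 0.93 to 1.28). MLXIP was past 2-fold in TPM, in CPM (counts scaled to the library total), with a pseudocount of 0.1 FPKM and with the GC trend taken out, at 1.17, 1.09, 1.09 and 1.04, and short of it with a pseudocount of 5 FPKM, at 0.68. Neither of its expected counts, 813.45 with the FZD2 shRNA and 387.61 with the control shRNA, was whole, and genes with shared reads had the higher median given above; the part of shared reads in this value was not tested. MLX, its partner, had 22.86 FPKM with the FZD2 shRNA and 18.92 FPKM with the control shRNA (log2 ratio 0.26, counting interval of the counts 0.05 to 0.45). MLXIP over MLX was 0.503 with the FZD2 shRNA and 0.282 with the control shRNA. The MLX span overlaps that of PSMC3IP, at 35.01 FPKM with the FZD2 shRNA and 33.44 FPKM with the control shRNA.

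MGA had 2.32 FPKM with the FZD2 shRNA and 2.52 FPKM with the control shRNA (log2 ratio -0.08, counting interval of the counts -0.40 to 0.14). Among the other members of the MYC and MLXIP families, MYCL had 0.27 FPKM with the FZD2 shRNA and 0.53 FPKM with the control shRNA, MLXIPL (ChREBP) had 0.42 FPKM with the FZD2 shRNA and 0.15 FPKM with the control shRNA, and MYCN was unlisted in both. None of these 3 was measured, so MYC was the family's abundant member in both libraries.

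In the FZD2 shRNA library the order of levels ran MXD3, MYC, MLX, MLXIP, MAX, MNT, MXI1, MXD4, MGA and MXD1 by FPKM. The counting intervals of MYC (23.1 to 27.6 FPKM) and MLX (20.8 to 25.1 FPKM) overlapped there, as did those of MNT and MXI1 and of MXD4 and MGA. In the control library the order was MYC, MXD3, MLX, MAX, MLXIP, MNT, MXI1, MXD4, MGA and MXD1, with overlapping intervals for MLX (17.1 to 20.9 FPKM) and MAX (16.2 to 20.4 FPKM), for MLXIP and MNT, for MNT and MXI1, and for MXD4 and MGA. Together the 10 genes summed to 133.02 FPKM with the FZD2 shRNA and 164.98 FPKM with the control shRNA, and MYC made up 19.0% of the sum with the FZD2 shRNA and 39.7% with the control shRNA.

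**Figure D4:**
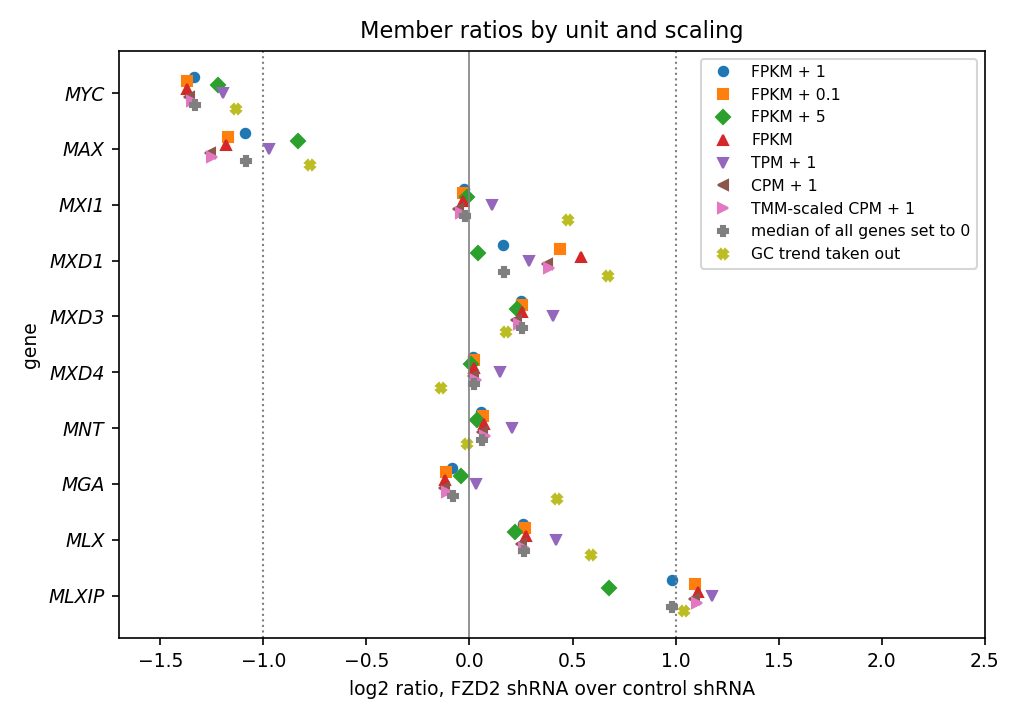
Log2 ratio of FZD2 shRNA over control shRNA for each gene under 9 units, scalings and pseudocounts (one marker each); dotted lines mark 2-fold. MYC stays left of the line at -1 under all 9, MAX crosses it in TPM, with FPKM + 5 and with the GC trend taken out, and MLXIP crosses the line at 1.

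The count of members past the limit moved with the setting, and so did the share of all measured genes. Lower members were 1 with a pseudocount of 5 FPKM (2.09% of all measured genes lower), 1 in TPM (6.35%), 1 with the GC trend taken out (2.52%) and 0 at a 4-fold limit (0.41%). Higher members were 1, MLXIP, with a pseudocount of 0.1 (19.9% of all measured genes higher), with none (20.4%), in TPM (20.3%), in CPM (16.9%), in CPM scaled by TMM, a trimmed mean of ratios (17.1%), at a 1.5-fold limit (26.1%) and with the GC trend taken out (21.4%). By counting intervals 3 members were higher and 2 lower, against 35.5% and 36.8% of all. For the lists below, the other background shares were 6.55% higher with a pseudocount of 5 FPKM, 21.7% lower at 1.5-fold and 2.66% higher at 4-fold.

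Promoter sequence was read for the members because dimers of MAX and of MLX bind the E-box. RefSeq windows (build GRCh38.p14, from 250 bases before to 50 after a gene's start) were held for 9 members in 14 windows, all but MYC. The letters CACGTG, the same on both strands, were in 3 of the 14, at MXD4, MNT and MLX, and in 7.26% of 35116 windows of the same length. The related letters CACGCG, read as CGCGTG on the other strand, were in 3 of the 14 and 11.4% of all windows, and CTTTGA, read as TCAAAG on the other strand, the core of TCF and LEF sites, in 1 of the 14 and 12.9%. The windows of MAX and MLXIP, the members with the lowest and highest ratio outside MYC, are shown beside the 3 with an E-box, with CACGTG in capitals; of the 2 windows listed for MAX it is the one further upstream.
MAX (chr14:65102234-65102533, minus strand): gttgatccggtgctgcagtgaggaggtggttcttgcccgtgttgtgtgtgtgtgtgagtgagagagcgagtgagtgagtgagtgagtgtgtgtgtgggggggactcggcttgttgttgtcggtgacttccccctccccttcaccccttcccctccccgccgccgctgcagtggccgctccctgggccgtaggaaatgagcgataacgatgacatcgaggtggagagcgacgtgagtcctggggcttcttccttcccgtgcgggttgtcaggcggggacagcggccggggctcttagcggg
MLXIP (chr12:122078506-122078805, plus strand): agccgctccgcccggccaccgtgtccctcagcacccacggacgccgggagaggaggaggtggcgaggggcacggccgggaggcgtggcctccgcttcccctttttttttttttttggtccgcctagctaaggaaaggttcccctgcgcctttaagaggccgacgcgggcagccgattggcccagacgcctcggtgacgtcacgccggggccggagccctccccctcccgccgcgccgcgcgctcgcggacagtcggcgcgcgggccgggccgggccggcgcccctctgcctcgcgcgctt
MXD4 (chr4:2262060-2262359, minus strand): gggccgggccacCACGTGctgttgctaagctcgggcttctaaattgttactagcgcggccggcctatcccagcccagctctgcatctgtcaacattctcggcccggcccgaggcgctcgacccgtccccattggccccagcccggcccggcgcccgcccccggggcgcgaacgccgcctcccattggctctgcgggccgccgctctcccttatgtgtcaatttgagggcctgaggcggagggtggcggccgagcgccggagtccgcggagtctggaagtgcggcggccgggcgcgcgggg
MNT (chr17:2401011-2401310, minus strand): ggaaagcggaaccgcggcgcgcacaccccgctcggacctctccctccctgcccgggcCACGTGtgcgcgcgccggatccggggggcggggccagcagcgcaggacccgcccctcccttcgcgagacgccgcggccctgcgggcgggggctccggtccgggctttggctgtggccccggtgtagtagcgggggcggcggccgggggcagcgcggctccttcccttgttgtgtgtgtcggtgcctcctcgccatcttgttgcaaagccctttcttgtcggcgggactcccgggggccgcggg
MLX (chr17:42566850-42567149, plus strand): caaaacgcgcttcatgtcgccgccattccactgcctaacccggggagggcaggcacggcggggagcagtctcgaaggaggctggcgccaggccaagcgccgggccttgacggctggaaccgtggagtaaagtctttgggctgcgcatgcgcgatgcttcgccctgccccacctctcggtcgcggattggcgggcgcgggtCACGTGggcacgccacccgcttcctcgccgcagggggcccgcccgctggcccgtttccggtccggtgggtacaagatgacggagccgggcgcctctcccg
The E-box begins 50 bases before the start at MLX, 193 before it at MNT and 238 before it at MXD4. The 3 members with it had log2 ratios of 0.26, 0.06 and 0.02 in that order. A match is a run of letters and not a bound site.

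Genes that MYC is known to activate were mostly near their control level, with a few well below it. All 58 genes of the list were measured; 5 were lower and 1 was higher (8.62% and 1.72%, against 7.41% and 15.2% of all measured genes), and the median log2 ratio of FPKM + 1 was -0.19, against -0.0042 over all. In all, 35 of the 58 had a ratio below 0. Of the 58, 19 had shared reads. Among those without shared reads 3 were lower and 0 higher, where 10.2% and 4.19% of all such genes were. Their median was -0.19, against -0.25 for all measured genes without shared reads, so on that basis the list was not below the background. ODC1, ornithine decarboxylase of polyamine synthesis and a textbook E-box target, had 20.78 FPKM with the FZD2 shRNA and 60.91 FPKM with the control shRNA (log2 ratio -1.51). HSPD1, the mitochondrial chaperonin, had 347.27 FPKM with the FZD2 shRNA and 804.76 FPKM with the control shRNA (-1.21), and HSPE1, its co-chaperonin, had 237.44 FPKM with the FZD2 shRNA and 488.31 FPKM with the control shRNA (-1.04); both had shared reads. The arginine methyltransferase gene PRMT3 was at 1.65 FPKM with the FZD2 shRNA against 6.04 FPKM with the control shRNA (-1.41), and TFB2M, a mitochondrial transcription factor, at 3.64 FPKM with the FZD2 shRNA against 10.64 FPKM with the control shRNA (-1.33). With the GC trend taken out, ODC1 alone of these 5 was still past 2-fold, at -1.12. DKC1, the pseudouridine synthase dyskerin, was the higher gene, at 143.68 FPKM with the FZD2 shRNA and 71.08 FPKM with the control shRNA (1.01, shared reads).

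The E-box was frequent at the start of these growth genes. Of the 49 with a window that was read, 25 (51.0%) held CACGTG, against 12.0% of 11101 measured genes with such a window. The 25 had a median log2 ratio of -0.40 and the other 24 of -0.21; over all measured genes with a window the medians were -0.07 with the letters and -0.04 without. Lower genes were 4 of the 25 with the letters (ODC1, PRMT3, HSPD1 and HSPE1) and 1 of the 24 without, against 110 of 1335 with the letters and 672 of 9766 without over all measured genes with a window. HSPD1 and HSPE1 start back to back and their windows overlap, so they share a single E-box, 88 bases before the start of HSPD1 and 22 before that of HSPE1. ODC1 holds it at 2 places, 29 bases before and 5 after its start. Those windows are shown with the E-box in capitals.
ODC1 (chr2:10447963-10448262, minus strand): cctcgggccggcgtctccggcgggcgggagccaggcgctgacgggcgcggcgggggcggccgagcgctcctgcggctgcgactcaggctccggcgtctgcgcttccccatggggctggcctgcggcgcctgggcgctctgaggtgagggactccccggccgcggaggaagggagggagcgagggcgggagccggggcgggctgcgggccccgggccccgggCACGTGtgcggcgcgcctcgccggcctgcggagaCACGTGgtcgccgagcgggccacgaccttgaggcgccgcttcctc
HSPD1 (chr2:197500225-197500524, minus strand): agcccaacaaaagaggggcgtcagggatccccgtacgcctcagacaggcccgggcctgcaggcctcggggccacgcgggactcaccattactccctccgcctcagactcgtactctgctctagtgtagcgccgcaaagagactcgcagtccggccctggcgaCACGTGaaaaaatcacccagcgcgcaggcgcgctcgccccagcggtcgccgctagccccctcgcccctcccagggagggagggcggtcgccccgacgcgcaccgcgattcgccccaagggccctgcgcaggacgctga
Genes with an E-box also stood near or above their control level, of which these were chosen after their values were seen: FBL, the nucleolar methyltransferase fibrillarin, with the letters 6 bases after its start, had 443.5 FPKM with the FZD2 shRNA and 241.36 FPKM with the control shRNA (0.88), and CDK4, with 3 copies in its window, had 63.43 FPKM with the FZD2 shRNA and 69.36 FPKM with the control shRNA (-0.13, shared reads).

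Genes that MYC is known to repress were not higher as a list. Of 12, 8 were measured, 2 were lower and 0 were higher, with a median log2 ratio of -0.68. Lower genes made up 7.41% of all measured genes and higher genes 15.2%. The 8 had no shared reads. For all measured genes without shared reads, the lower share was 10.2%, the higher share 4.19% and the median log2 ratio -0.25. THBS1, the angiogenesis inhibitor thrombospondin 1, had 20.24 FPKM with the FZD2 shRNA and 63.41 FPKM with the control shRNA (-1.60). CDKN1B, the CDK inhibitor p27, had 4.0 FPKM with the FZD2 shRNA and 13.58 FPKM with the control shRNA (-1.54), and CDKN1A, the CDK inhibitor p21, had 6.28 FPKM with the FZD2 shRNA and 11.73 FPKM with the control shRNA (-0.81). GADD45A was at 15.98 FPKM with the FZD2 shRNA and 32.75 FPKM with the control shRNA (-0.99), NDRG2 at 3.12 FPKM with the FZD2 shRNA and 5.01 FPKM with the control shRNA (-0.54), and CLU, a secreted chaperone, at 198.57 FPKM with the FZD2 shRNA and 147.55 FPKM with the control shRNA (0.43).

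The cofactors of either side were mixed. The shares to set beside their counts are 7.41% of all measured genes lower and 15.2% higher. Of 15 coactivator genes of MYC, 1 was lower and 0 were higher (median -0.14): ACTL6A, a subunit of the TIP60 and SWI/SNF complexes, at 6.53 FPKM with the FZD2 shRNA and 24.82 FPKM with the control shRNA (-1.78). TRRAP, the scaffold that MYC contacts directly, had 2.38 FPKM with the FZD2 shRNA and 5.11 FPKM with the control shRNA (-0.85, shared reads), and the acetyltransferase gene KAT2A had 9.16 FPKM with the FZD2 shRNA and 17.5 FPKM with the control shRNA (-0.86). The helicase genes RUVBL1 (30.64 FPKM with the FZD2 shRNA, 46.65 FPKM with the control shRNA) and RUVBL2 (117.49 FPKM with the FZD2 shRNA and 81.5 FPKM with the control shRNA) went opposite ways by -0.59 and 0.52. WDR5 was at 14.27 FPKM with the FZD2 shRNA and 20.06 FPKM with the control shRNA (-0.46, shared reads).

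Among the SIN3 and NCOR corepressor genes, through which the MXD proteins act, 4 of 16 were higher and 3 lower (25.0% and 18.8%, median -0.28). Over all measured genes 15.2% were higher and 7.41% lower. NCOR1 had 78.41 FPKM with the FZD2 shRNA and 26.02 FPKM with the control shRNA (1.56, shared reads), with a listed length of 3690.83 bases with the FZD2 shRNA and 5672.35 bases with the control shRNA and a log2 ratio of the counts of 0.96. The SIN3-associated genes ARID4A (23.82 FPKM with the FZD2 shRNA and 9.62 FPKM with the control shRNA, 1.22), ARID4B (59.82 FPKM with the FZD2 shRNA and 25.13 FPKM with the control shRNA, 1.22) and SUDS3 (14.07 FPKM with the FZD2 shRNA and 6.34 FPKM with the control shRNA, 1.04) were higher with the FZD2 shRNA. HDAC1, a catalytic subunit, was lower there, at 21.76 FPKM against 64.92 FPKM with the control shRNA (-1.53), as was the histone chaperone gene RBBP7 (60.82 FPKM with the FZD2 shRNA against 123.44 FPKM with the control shRNA, -1.01). SAP30 completed the lower genes, at 4.69 FPKM with the FZD2 shRNA and 10.41 FPKM with the control shRNA, and was outside the rule for named genes.

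Of 11 partner genes of MGA in its Polycomb complex, 2 were lower and 1 was higher (median -0.46). The shares of all measured genes were 7.41% lower and 15.2% higher. PCGF6, which defines the complex, had 2.04 FPKM with the FZD2 shRNA and 6.06 FPKM with the control shRNA (-1.22), TFDP1 had 14.31 FPKM with the FZD2 shRNA and 33.07 FPKM with the control shRNA (-1.15), and E2F6, its DNA-binding E2F, had 3.12 FPKM with the FZD2 shRNA and 6.69 FPKM with the control shRNA (-0.90). RNF2, the ubiquitin ligase, was at 4.94 FPKM with the FZD2 shRNA and 8.96 FPKM with the control shRNA (-0.75). TFDP2 was higher, at 25.6 FPKM with the FZD2 shRNA and 7.23 FPKM with the control shRNA (1.69), and YAF2 was at 10.85 FPKM with the FZD2 shRNA and 5.86 FPKM with the control shRNA (0.79), both with shared reads.

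Of 17 genes that act on MYC protein stability, 1 was higher and 1 lower (5.88% each, against 15.2% and 7.41% of all measured genes), with a median of 0.11. That split was 3 higher and 0 lower in TPM, where 20.3% and 6.35% of all measured genes were. It was also 3 and 0 after the GC trend was taken out, where 21.4% and 2.52% were. FBXW7, the ubiquitin ligase subunit that marks MYC for degradation, had 8.85 FPKM with the FZD2 shRNA and 3.54 FPKM with the control shRNA (1.12). SKP2, another such subunit, had 14.75 FPKM with the FZD2 shRNA and 6.95 FPKM with the control shRNA (0.99, shared reads), USP36, a nucleolar deubiquitinase of MYC, had 34.72 FPKM with the FZD2 shRNA and 18.56 FPKM with the control shRNA (0.87), and CIP2A, an inhibitor of the phosphatase PP2A that protects MYC, had 25.31 FPKM with the FZD2 shRNA and 13.93 FPKM with the control shRNA (0.82). TRPC4AP was the lower gene, at 8.78 FPKM with the FZD2 shRNA and 19.38 FPKM with the control shRNA (-1.06), and the mitotic kinase gene PLK1 was at 26.3 FPKM with the FZD2 shRNA and 44.08 FPKM with the control shRNA (-0.72).

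Of 16 measured genes that act on MYC transcription or its mRNA, 3 were lower and 1 was higher (median -0.08). Lower and higher genes made up 7.41% and 15.2% of all measured genes. FUBP1, which binds the far upstream element of MYC, had 13.18 FPKM with the FZD2 shRNA and 44.76 FPKM with the control shRNA (-1.69), and HNRNPK, which binds the MYC promoter, had 121.94 FPKM with the FZD2 shRNA and 246.87 FPKM with the control shRNA (-1.01). CDK8, the Mediator kinase, was the remaining lower gene, and with a higher level under 5 FPKM it fell outside the rule for named genes and was chosen after its values were seen: it had 1.78 FPKM with the FZD2 shRNA and 4.95 FPKM with the control shRNA (-1.10). CTNNB1, which encodes beta-catenin, was at 23.71 FPKM with the FZD2 shRNA and 35.14 FPKM with the control shRNA (-0.55), and IGF2BP1, which stabilises MYC mRNA, at 32.21 FPKM with the FZD2 shRNA and 22.12 FPKM with the control shRNA (0.52). PVT1, the long noncoding RNA gene next to MYC, had 17.01 FPKM with the FZD2 shRNA and 8.73 FPKM with the control shRNA (0.89, shared reads), the opposite direction to MYC.

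Known target genes of MLXIP and of its relative MLXIPL (ChREBP), taken as 1 list, had mostly ratios below 0. MLXIP itself was at 0.98, and MLXIPL was not measured. Of 7, 5 were measured and 0 were past 2-fold in either direction, where 7.41% of all measured genes were lower and 15.2% higher. Their median was -0.71, and -0.23 with the GC trend taken out. TXNIP, the thioredoxin inhibitor and best known MLXIP target, had 1.71 FPKM with the FZD2 shRNA and 3.64 FPKM with the control shRNA (-0.78), and ARRDC4, its paralog, had 0.38 FPKM with the FZD2 shRNA and 0.69 FPKM with the control shRNA and was not measured. PFKFB3, of glycolysis, was at 54.47 FPKM with the FZD2 shRNA and 97.84 FPKM with the control shRNA (-0.83), ARRDC3 at 8.22 FPKM with the FZD2 shRNA and 14.09 FPKM with the control shRNA (-0.71) and KLF10 at 6.76 FPKM with the FZD2 shRNA and 11.55 FPKM with the control shRNA (-0.69). PKLR, at 3.01 FPKM with the FZD2 shRNA and 1.78 FPKM with the control shRNA (0.53), had the highest ratio of the 5 and fell outside the rule for named genes.

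**Figure D5:**
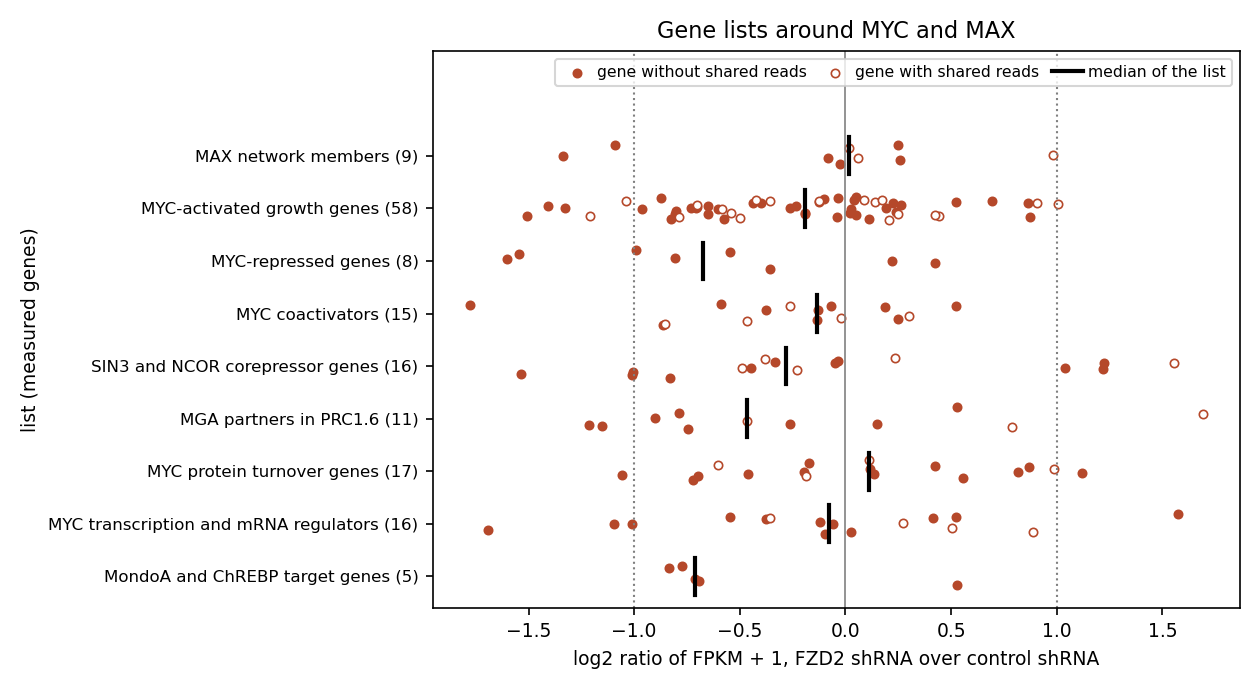
Log2 ratio of FPKM + 1, FZD2 shRNA over control shRNA, of each measured gene by list, with filled points for genes without shared reads, open points for genes with them, a bar at each list's median and dotted lines at 2-fold. The medians run from -0.71 for the MLXIP and ChREBP targets (-0.23 with the GC trend taken out, which is not plotted) to 0.11 for the genes of MYC protein turnover, and most points of each list lie between the dotted lines.

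Over the 144 distinct measured genes of these lists, 17 were lower and 8 higher (11.8% and 5.56%), where 7.41% and 15.2% of all measured genes were. In TPM the split of the same genes was 12 lower and 14 higher, where 6.35% and 20.3% of all measured genes were. With the GC trend taken out, 6 were lower (ODC1, THBS1, CDKN1B, ACTL6A, HDAC1 and FUBP1) and 13 higher, where 2.52% and 21.4% of all measured genes were. The GC trend taken out also moved list medians: to 0.18 for the members, -0.02 for the growth genes, 0.02 for the corepressor genes, -0.22 for the MGA partners, 0.33 for the turnover genes and 0.16 for the MYC transcription and mRNA regulators, so the sign of the corepressor and regulator medians was the opposite of that in FPKM. TPM moved the median log2 ratio of all measured genes to 0.14, CPM to -0.03 and TMM-scaled CPM to -0.01. The GC trend was fitted to genes without shared reads, whose median was -0.25, and was subtracted whole. Values with it taken out therefore hold a shift of the general level beside any part of GC content, and the 2 were not separated. Among members without shared reads, 2 of 6 were lower and 0 higher, where 10.2% and 4.19% of all such genes were.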

How the data were processed

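Members and gene lists were chosen with earlier results of these data known. Poly(A)-selected RNA of SNU449 cells was fragmented and reverse transcribed with random primers per the labels' protocols, then read on a BGISEQ-500. HISAT, Bowtie2 and hg19 appear in the submitters' processing notes without roles or versions. The counting program, annotation and strand setting were not given in the sources used here. Expected counts, as deposited, are estimated reads per gene, not normalized and not always whole. The deposited FPKM values are fragments scaled to gene length and depth, as the authors computed them. Per the file headers a length in bases is listed too. Genes not listed in a table were set to 0.

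Symbols came from the RefSeq gene table by gene identifier. The main value was the log2 ratio of FPKM + 1 with the FZD2 shRNA to FPKM + 1 with the control shRNA, which understates the change of low genes. With 1 library per group there was no test and no p-value. Expected counts were rounded for the 95% intervals, which are exact conditional binomial for a ratio of counts and exact Poisson for a level. The limit a count of 0 allows, 3 counts, is 3.64e-05% of the FZD2 shRNA library and 3.56e-05% of the control. An expected count was called whole within 0.001. All 10 members were named, with FZD2, and of each list up to 6 genes with the largest ratio in size at 5 FPKM or more, plus a few fixed names; others are said to be outside this rule. A few genes that the rule names are not reported here. GC content came from GENCODE release 29 transcripts (96.1% of measured genes and 144 of 144 list genes), and its trend was a lowess fit (fraction 0.3) to genes without shared reads. The fitted value was subtracted whole, so the general level of those genes was taken out with it. The rules were tested on simulated Poisson counts, which hold counting error only. That check cannot show how the calls fare against variation between cultures, because none was simulated. Alternatives were other pseudocounts, filters, size limits, units and scalings, with TMM from edgeR 4.0.16 in R 4.3.3; the GC trend, no pseudocount, genes without shared reads and the antagonist sum without MXD3 were added after seeing the data. Calculations used SciPy 1.17.1, statsmodels 0.14.6, pandas 2.3.3 and NumPy 2.4.6 in Python 3.11.15, and plots matplotlib 3.10.9.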

Additional observations from a re-analysis of the deposited data

How the results depend on the processing

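With 1 library per group, no spread between replicates is known and no replicate could be left out. No paired analysis was possible because each group holds 1 library. No result turned its direction past 2-fold. MYC was at -1.13 with the GC trend taken out, and FZD2 at -2.04 there and at -1.63 with a pseudocount of 5 FPKM; in the other alternatives both moved by less than their counting intervals. MYC over its antagonists lay between -1.59 and -1.41 on the log2 scale in all 5 alternatives. The count of lower members was 1 with a pseudocount of 5, in TPM and with the GC trend taken out, where MAX was short of the limit, and 0 at a 4-fold limit. The count of higher members was 1 (MLXIP) with a pseudocount of 0.1 or none, in TPM, CPM and TMM-scaled CPM, at a 1.5-fold limit and with the GC trend taken out, and 3 by counting intervals. The members' median was -0.055 without shared reads, and their mean -0.11. Over the 144 list genes the higher count was 4 with a pseudocount of 5 (6.55% of all measured genes) and 14 in TPM (20.3%). It was 17 at 1.5-fold (26.1%), 0 at 4-fold (2.66%), 40 by counting intervals (35.5%) and 13 with the GC trend taken out (21.4%). Among the list genes without shared reads, which are fewer than 144, it was 5 (4.19% of all such genes). The lower count over the 144 was 8 with a pseudocount of 5 (2.09% of all measured genes) and 46 at 1.5-fold (21.7%). It was 0 at 4-fold (0.41%), 75 by counting intervals (36.8%) and 6 with the GC trend taken out (2.52%). Why these counts moved was not tested. Depth limits MXD1, with 24 reads with the FZD2 shRNA and 17 with the control shRNA.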
